A study of Mus musculus with 2 samples.

Results

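The 34 genes described here encode proteins of complement and of blood coagulation with fibrinolysis, 17 of each. They include receptors through which cells sense complement fragments and coagulation proteases. They were chosen by gene name, as the non-control probes of both arrays that carried a member's symbol, and made up 34 of the 19729 named genes on the array. Under their own symbols 32 were found, while C1ra (written C1r) and Cr1l (written Crry) were taken through their RefSeq accessions. In all, 51 probes measured them. Granulocytes and monocytes had been sorted from bone marrow of wild-type male mice of the strain C57BL/6, and the total RNA of each cell type was amplified, labelled with Cy3 and hybridised to 1 array. The sources used here do not give the surface markers of the sort, the age or the number of mice. With 1 array per cell type no difference has a replicate check and no test was possible, and the errors given below cover the scanner's own error model only. In RNA from a sorted population, fewer cells of a type and less RNA per cell cannot be told apart.

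Complement is a cascade of plasma proteases that tags particles for uptake, releases the anaphylatoxins and can open membranes. It starts from C1q bound to immune complexes (classical pathway) or from C3 turning over by itself (alternative pathway), and membrane proteins such as CD55 and CD59 keep it off host cells. Coagulation starts where tissue factor meets factor VII, runs through factor X and factor V to thrombin, and ends with fibrin that factor XIII cross-links. The liver makes most of the circulating proteins, while myeloid cells make some components locally and carry many of the receptors.

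A level below is the log2 of a gene's intensity over the 75th percentile of its array, and a difference is the granulocyte level minus the monocyte level. That percentile was 339.4 for granulocytes and 620.9 for monocytes. Probes well above background made up 63.9% in granulocytes and 68.2% in monocytes. The labels were set against marker genes of each cell type. All 9 granulocyte markers were well above background on both arrays, with a summed level of 11.84 in granulocytes and 9.84 in monocytes, and 6 of them were at least 4-fold higher in granulocytes. All 7 monocyte markers were also above background on both, with a summed level of 3.82 in granulocytes and 8.56 in monocytes, and 6 were at least 4-fold lower in granulocytes.

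Of the 34 genes, 28 were well above background on both arrays, 3 (Cfb, Cfd and Procr) only in monocytes, and 3 (C1s, F8 and F2rl1) on neither. Among the 31 measured on at least 1 array, 10 differed by at least 4-fold (32.3%), against 18.9% of the 15609 genes measured in the same way. C5ar1, Cd55, F3, F5, Plaur and Thbs1 were higher in granulocytes (6 of 31, background 8.54%), and Cfb, F10, F13a1 and Pros1 were lower in granulocytes (4 of 31, background 10.4%). These counts are a description, since the genes were not drawn at random. The median difference of the 31 was 0.75, beside 0.41 for all genes, so a gene near 0.41 sat at the middle of the array. Proc, with nearly equal intensities (63.3 in granulocytes and 66.5 in monocytes), gave 0.80 after scaling. A difference of that size can therefore come from the scaling alone. Without scaling the median of the 31 was -0.12, beside -0.42 for all genes. Differences lay above 0 for 20 genes and below 0 for 11 (35.5%), and 12 were within 2-fold. Of the 15609 genes, 9307 lay above 0, 5929 below 0 (38.0%) and 7817 within 2-fold, so the members' lean was close to that of all genes. The coagulation genes were spread most widely, with 7 of 15 at least 4-fold apart and a median of -0.66, while 3 of 16 complement genes were that far apart, with a median of 0.78. The sign of the coagulation median rests on the bound for Procr, since the 14 measured on both arrays had a median of 0.07.

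**Figure D1:**
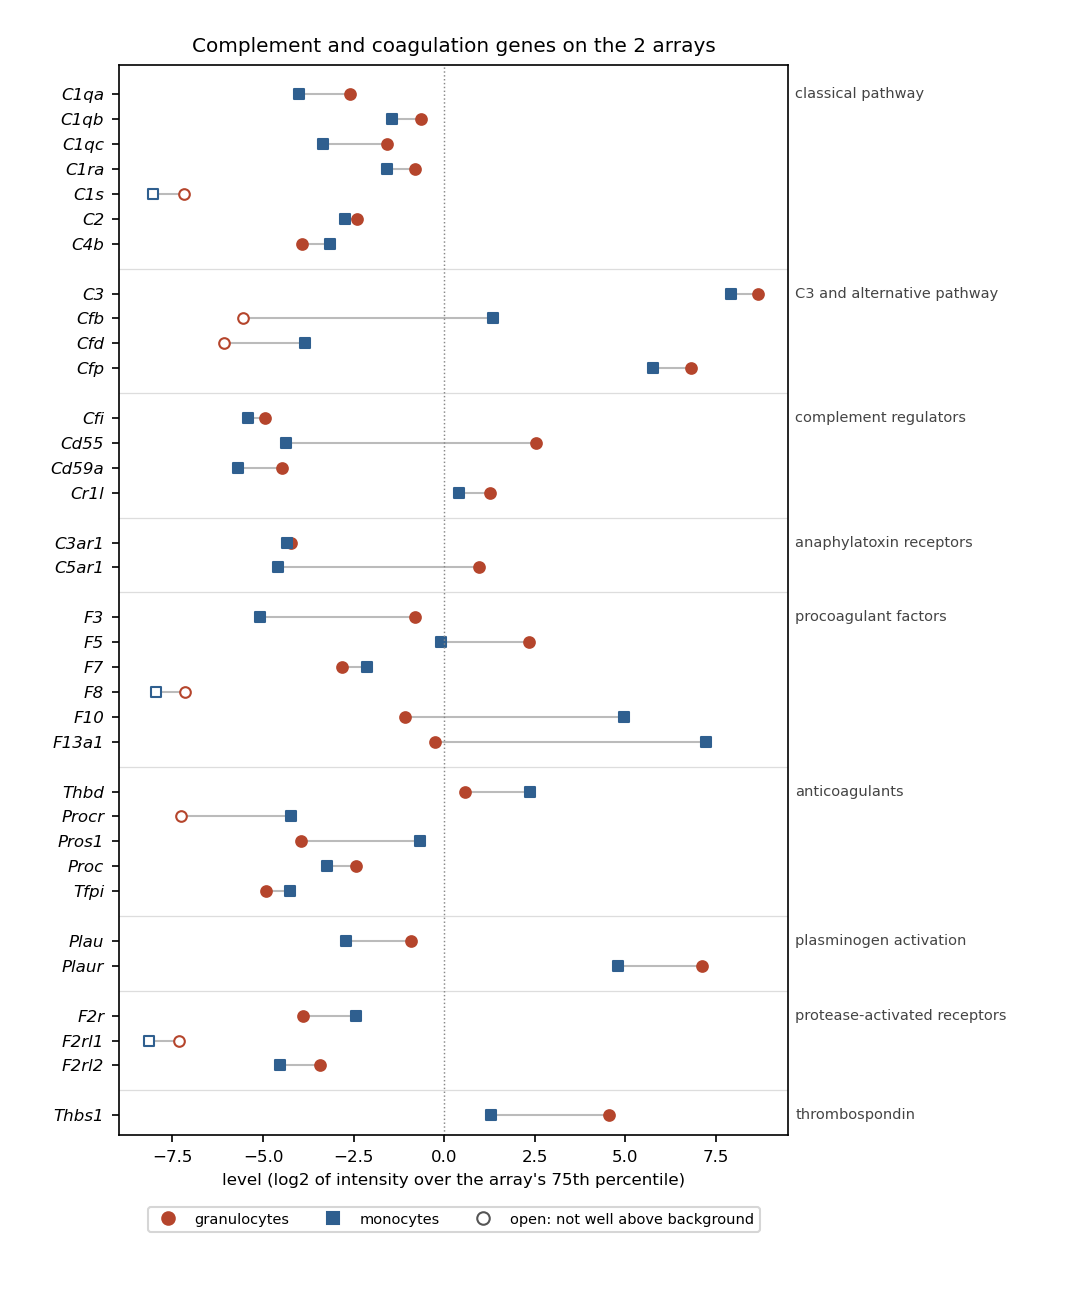
Level of each of the 34 genes in granulocytes and monocytes, as log2 of intensity over the array's 75th percentile, with genes grouped by role. F13a1, Cfb (open mark in granulocytes) and F10 have the widest gaps towards monocytes and Cd55 and C5ar1 the widest towards granulocytes, while C2 and C3ar1 lie almost together.

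**Figure D2:**
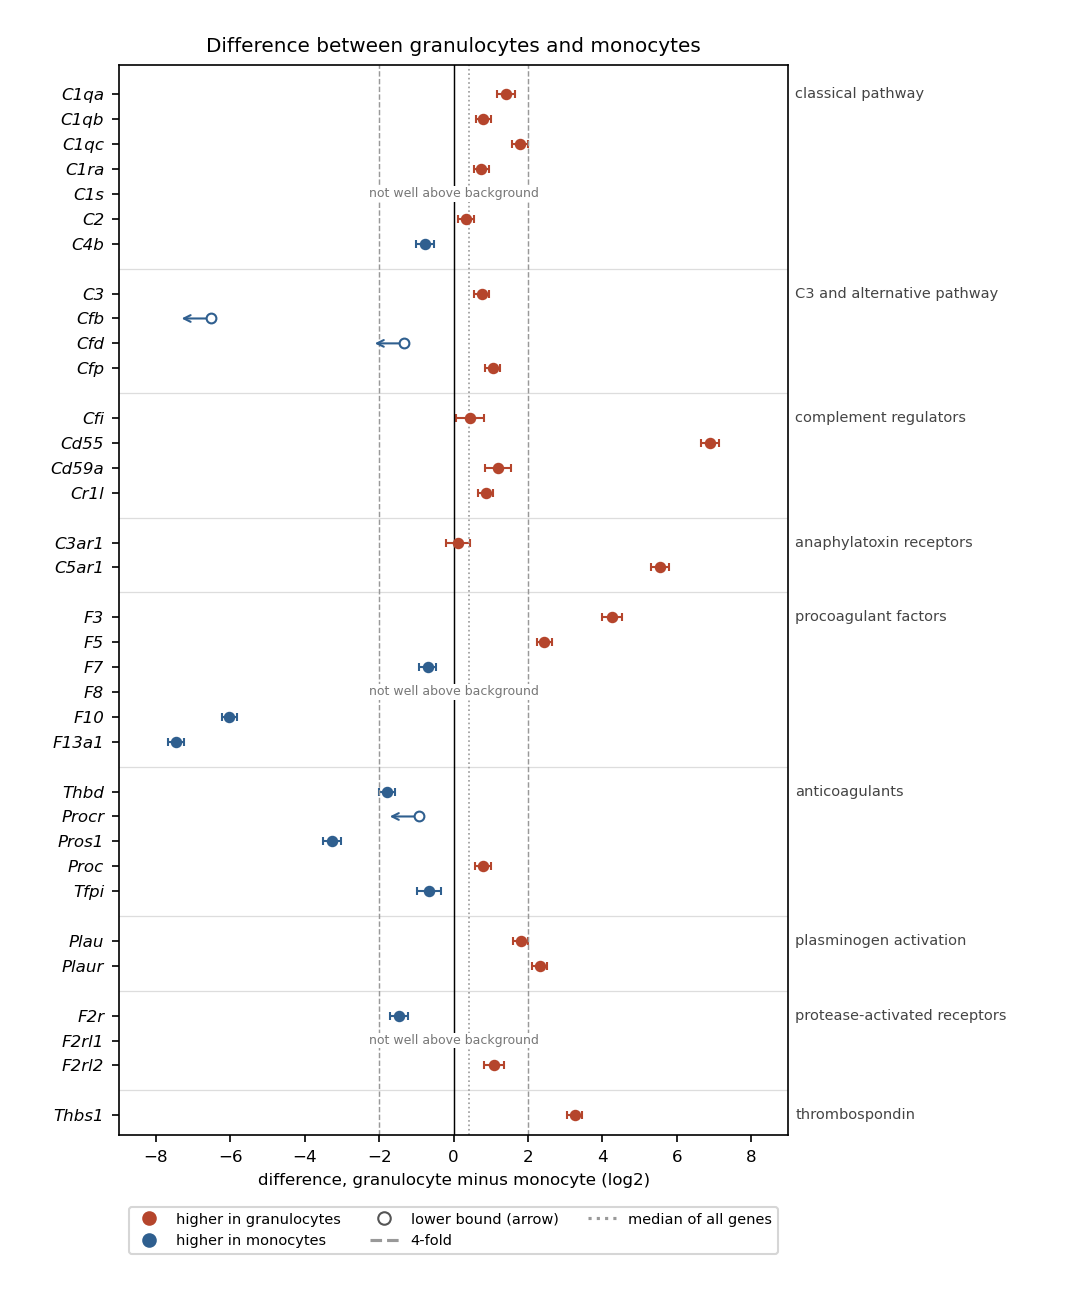
Difference of each gene, granulocyte minus monocyte on the log2 scale, with bars for the scanner error of that difference and arrows for bounds. The dashed lines stand at 4-fold and the dotted line at the median of all genes, 0.41, and 10 of the 31 measured genes lie beyond the dashed lines.

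Several of the widest differences rest on 1 probe each, and probes are shown so that the measured stretch of a transcript can be seen. Cfb, F10, C5ar1, F13a1 and F5 had a single probe each, which gave the values below. The probes of F13a1 and F5 are not printed. For Plaur, Thbs1 and Tfpi the sequence is that of a further probe and not of the one used for the gene. The further Plaur probe gave 2.40, the Thbs1 probe 2.49 and the Tfpi probe a bound of -3.02. Positions are those in the files, in the mouse build mm8, and the letters are the transcript strand, 5′ to 3′, with no part capitalised. Each probe has 60 bases, and that of Cfb spans 357 bases of the genome, so it joins exons, as do those used for Cd55 and F5, which span 7987 and 2189 bases. No exon annotation of mm8 was used.
Cfb probe (chr17:34464613-34464969, minus strand): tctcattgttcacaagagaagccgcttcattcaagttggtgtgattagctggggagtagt
F10 probe (chr8:13055751-13055810, plus strand): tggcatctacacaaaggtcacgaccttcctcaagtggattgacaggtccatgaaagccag
C5ar1 probe (chr7:15407044-15407103, minus strand): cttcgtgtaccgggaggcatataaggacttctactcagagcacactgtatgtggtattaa
Plaur probe (chr7:24183056-24183115, plus strand): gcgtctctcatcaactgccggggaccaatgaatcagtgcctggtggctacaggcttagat
Thbs1 probe (chr2:117814035-117814094, plus strand): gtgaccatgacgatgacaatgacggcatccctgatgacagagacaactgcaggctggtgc
Tfpi probe (chr2:84254644-84254703, minus strand): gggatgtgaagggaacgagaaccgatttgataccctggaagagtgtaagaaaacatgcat

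Of the 7 classical pathway genes 6 were well above background on both arrays, and none reached 4-fold. C1q, the recognition molecule, is built from 3 chains whose genes lie together on chromosome 4. C1qa had a level of -2.60 in granulocytes and -4.01 in monocytes, a difference of 1.40 ± 0.24 (scanner error). C1qb stood at -0.63 in granulocytes and -1.43 in monocytes, 0.80 ± 0.20. C1qc stood at -1.57 in granulocytes and -3.35 in monocytes, 1.78 ± 0.21. All 3 chains were therefore higher in granulocytes by less than 4-fold, although C1qb came to -0.07 when the arrays were not scaled. Tissue macrophages, a main source of C1q, have markers of their own, and 8 of 10 were above background in granulocytes and 9 of 10 in monocytes. Their summed level was 6.38 in granulocytes and 5.27 in monocytes, but 1 gene, Slc40a1 (difference 4.65), carried most of the granulocyte sum. The median difference of the list was -0.03, and its other genes went both ways. Adgre1 (-1.84), Vcam1 (-1.52), Mertk (a bound of -0.64) and Cd163 (-0.53) were lower in granulocytes. Cd5l (1.99), Spic (1.03) and Hmox1 (0.54) were higher, Siglec1 gave -0.03, and Timd4 was not above background on either array. Their part in the C1q values was not tested.

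C1ra, a protease that C1q activates, had a level of -0.82 in granulocytes and -1.57 in monocytes, a difference of 0.75 ± 0.20. C1s, the protease that C1r cleaves, was not well above background on either array with either of its 2 probes, so no fold is given. C2 provides the protease of the classical C3 convertase, and its levels were -2.40 in granulocytes and -2.73 in monocytes, a difference of 0.33 ± 0.21. Its other probe gave 0.26. C4b, whose product binds C2 in that convertase, was at -3.93 in granulocytes and -3.16 in monocytes, a difference of -0.77 ± 0.24. The C4b probe also lists the accession of the near-identical gene C4a, and the 2 cannot be told apart with it. C1qc was the widest apart of the 6, and C1ra, C2 and C4b changed sign under at least 1 other processing setting.

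Of the 4 genes of C3 and the alternative pathway, 1, Cfb, was at least 4-fold apart, beside 18.9% of all genes. C3, on which all activation routes converge, had an intensity of 137154 in granulocytes and 148899 in monocytes. After scaling these were levels of 8.66 in granulocytes and 7.91 in monocytes, a difference of 0.75 ± 0.20. The probe was printed repeatedly, with an SD between spots of 0.02 in granulocytes and 0.03 in monocytes. The second C3 probe gave 0.55 but was far dimmer, with intensities of 158.6 in granulocytes and 198.0 in monocytes. C3 was thus bright in both cell types by the probe used and not by the other. Its direction turned to -0.21 under quantile normalisation and was also negative without scaling. Cfp, properdin, which stabilises the alternative convertase and is stored in neutrophil granules, had intensities of 38090 in granulocytes and 33709 in monocytes. Its levels were 6.81 in granulocytes and 5.76 in monocytes, a difference of 1.05 ± 0.20.

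Cfb, factor B, carries the protease of the alternative convertase. Its intensity was 7.27 in granulocytes, not well above background, and 1593 in monocytes. It was at least 92.0-fold lower in granulocytes, measured against the lowest signal well above background on the granulocyte array, and at least 12.6-fold lower with normexp background correction. Cfd, factor D, which cleaves factor B, had an intensity of 4.99 in granulocytes, again not well above background, and 43.6 in monocytes, and was at least 2.52-fold lower in granulocytes. With normexp the Cfd bound was -0.02, so the size of that difference depends on the background correction. Cfb and C2 are neighbouring and related genes on chromosome 17, with probes at chr17:34464613-34464969 and chr17:34470686-34470745 in mm8. The Cfb difference was a bound of -6.52, while that of C2 was 0.33. C4b, probed at chr17:34337472-34337531 in the same region, gave -0.77. The large difference was thus seen for Cfb and not for C2 or C4b.

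The regulators Cfi, Cd59a and Cr1l differed by less than 4-fold, and Cd55 by far more. Cd55, decay-accelerating factor, dissociates the C3 convertases on the cell's own membrane. It had an intensity of 1957 in granulocytes and 30.0 in monocytes, with levels of 2.53 in granulocytes and -4.37 in monocytes. The difference was 6.90 ± 0.24, or 119.4-fold higher in granulocytes, and 31.9-fold with normexp. A second Cd55 probe, not above background in monocytes, gave a bound of 6.58, and a further probe at another position was not above background on either array. Cd55b, a close copy of Cd55, gave 3.74 (1.81 with normexp), and hybridisation to each may include RNA of the other copy, so both are uncertain in that respect. Cr1l (Crry), the rodent regulator with related function, was at 1.26 in granulocytes and 0.40 in monocytes, 0.86 ± 0.20. Cd59a, which blocks the membrane attack complex, was at -4.48 in granulocytes and -5.68 in monocytes, 1.20 ± 0.36. Cfi, factor I, which cleaves C3b, was at -4.96 in granulocytes and -5.40 in monocytes, 0.45 ± 0.38. Without scaling, Cr1l came to -0.01 and Cfi to -0.42.

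The anaphylatoxin receptors were unlike each other. C5ar1, the receptor of C5a and a chemotactic receptor of neutrophils, had an intensity of 654.1 in granulocytes and 25.6 in monocytes. Its difference was 5.55 ± 0.24, or 46.7-fold higher in granulocytes, and 14.2-fold with normexp. C3ar1, the receptor of C3a, was at -4.22 in granulocytes and -4.34 in monocytes, a difference of 0.12 ± 0.32, which is within the scanner error, and it came to -0.75 without scaling. Its second probe was not above background on either array.

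Among the procoagulant factors, 4 of the 5 measured genes were at least 4-fold apart, 2 in each direction, beside 18.9% of all genes. F13a1, the catalytic subunit of factor XIII, which cross-links fibrin, had an intensity of 286.4 in granulocytes and 92237 in monocytes. Its level was -0.24 in granulocytes and 7.21 in monocytes, and it was 176.0-fold lower in granulocytes, the widest difference measured on both arrays among the 34 genes. F10, factor X, which makes thrombin together with factor V, had an intensity of 160.5 in granulocytes and 19219 in monocytes. The difference was -6.03 ± 0.20, or 65.4-fold lower in granulocytes. F10 and F13a1 were both above background in granulocytes, so these are measured differences and not bounds.

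F3, tissue factor, the membrane protein that starts coagulation, ran the other way. Its intensity was 193.8 in granulocytes and 18.4 in monocytes, a difference of 4.27 ± 0.26, or 19.3-fold higher in granulocytes, and 5.33-fold with normexp. The other F3 probe, which overlaps the first in position, gave 4.83. F5, factor V, the cofactor of factor X, had an intensity of 1720 in granulocytes and 580.7 in monocytes and was 5.42-fold higher in granulocytes, with a difference of 2.44 ± 0.20. F7, the protease that tissue factor binds, had levels of -2.83 in granulocytes and -2.13 in monocytes, a difference of -0.70 ± 0.22. F8, the cofactor of factor IX, was not well above background on either array. The initiator and the cofactor were therefore higher in granulocytes, and factor X and the factor XIII subunit lower.

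Factor X and factor VII genes are neighbours on chromosome 8, with probes at chr8:13055751-13055810 and chr8:13035264-13035323 in mm8, and yet differed by -6.03 and -0.70. The 250 bases before the start sites of F10, F7, F13a1, F3 and Plaur are shown as examples. Of these, F10, F13a1, F3 and Plaur were at least 4-fold apart, and F7 is the neighbour that was not. The sequences are RefSeq's, from the assembly GRCm38.p6, with coordinates in that assembly and letters in the direction of the gene. Capitals mark matches, on either strand, to 5 motifs searched: the PU.1 core GAGGAA, the C/EBP motif TTGCNNAA, the AP-1 motif TGANTCA, the GAS motif TTCNNNGAA and the TATA box TATAAA.
F10 promoter (chr8:13037058-13037307, plus strand): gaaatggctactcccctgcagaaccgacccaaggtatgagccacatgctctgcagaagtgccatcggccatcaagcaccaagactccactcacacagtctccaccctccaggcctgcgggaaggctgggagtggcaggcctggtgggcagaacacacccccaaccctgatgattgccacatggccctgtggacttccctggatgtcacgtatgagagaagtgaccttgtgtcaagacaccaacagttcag
F7 promoter (chr8:13025784-13026033, plus strand): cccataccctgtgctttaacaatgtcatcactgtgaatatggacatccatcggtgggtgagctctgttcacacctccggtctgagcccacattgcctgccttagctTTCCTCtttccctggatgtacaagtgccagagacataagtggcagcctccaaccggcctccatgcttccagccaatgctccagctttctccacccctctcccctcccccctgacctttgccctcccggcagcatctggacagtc
F13a1 promoter (chr13:37050245-37050494, minus strand): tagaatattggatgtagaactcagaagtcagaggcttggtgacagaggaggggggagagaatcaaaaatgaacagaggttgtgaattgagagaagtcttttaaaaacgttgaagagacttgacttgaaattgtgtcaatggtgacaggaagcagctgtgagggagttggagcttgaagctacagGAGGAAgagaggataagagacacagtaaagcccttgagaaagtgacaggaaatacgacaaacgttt
F3 promoter (chr3:121723287-121723536, plus strand): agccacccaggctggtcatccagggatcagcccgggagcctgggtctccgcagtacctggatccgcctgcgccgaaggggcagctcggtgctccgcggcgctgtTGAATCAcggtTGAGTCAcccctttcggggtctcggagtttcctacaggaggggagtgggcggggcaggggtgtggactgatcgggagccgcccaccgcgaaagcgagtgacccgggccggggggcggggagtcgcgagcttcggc
Plaur promoter (chr7:24462233-24462482, plus strand): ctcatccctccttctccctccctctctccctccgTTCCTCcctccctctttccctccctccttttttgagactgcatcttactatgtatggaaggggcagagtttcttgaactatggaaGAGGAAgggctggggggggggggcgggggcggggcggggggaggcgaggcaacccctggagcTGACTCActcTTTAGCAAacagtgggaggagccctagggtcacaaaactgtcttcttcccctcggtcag

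F10 held no match to any of the motifs, F7 and the F13a1 start shown held the PU.1 core, F3 held 2 matches of AP-1, and Plaur held PU.1, C/EBP and AP-1 matches. F13a1 has a second start, whose promoter held no match to any of them. The promoters of Cd55, C5ar1 and F5, genes also at least 4-fold higher in granulocytes, are not shown and held no match either. For 24 of the 34 genes 27 promoters were matched. Of these 27, 8 held the PU.1 core (29.6%, against 23.3% of 32851 promoters of that length), 5 the C/EBP motif (18.5%, against 9.56%) and 6 the AP-1 motif (22.2%, against 6.75%). The GAS motif was in 1, Pros1 (3.70%, against 7.02%), and TATAAA in 2, C3ar1 and Tfpi (7.41%, against 12.4%). A match is a description of letters, and its part in the levels was not tested.

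Of the 5 anticoagulants only Pros1 was at least 4-fold apart, beside 18.9% of all genes. The differences of 4 of the 5 lay below 0, as did 38.0% of those of all genes, although with normexp background correction Tfpi turned to 0.42 and the bound for Procr was 0.00. Pros1, protein S, a cofactor of activated protein C and a ligand of the TAM receptors, had an intensity of 22.1 in granulocytes and 388.3 in monocytes, a difference of -3.26 ± 0.24 or 9.61-fold lower in granulocytes. Its other probe, not above background in granulocytes, gave a bound of -6.33. With normexp background correction Pros1 came to -1.70, short of 4-fold. Thbd, thrombomodulin, which turns thrombin into an activator of protein C, had an intensity of 508.1 in granulocytes and 3211 in monocytes. Its difference was -1.79 ± 0.20, just short of 4-fold, as was that of Plau on the other side.

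Procr, the endothelial protein C receptor, had an intensity of 2.22 in granulocytes, not well above background, and 32.9 in monocytes, and was at least 1.90-fold lower in granulocytes. Proc, protein C itself, was at -2.42 in granulocytes and -3.22 in monocytes, a difference of 0.80 ± 0.21, which turned to -0.07 without scaling. Tfpi, tissue factor pathway inhibitor, was at -4.92 in granulocytes and -4.26 in monocytes with the probe used, a difference of -0.66 ± 0.33. The Tfpi probe printed above gave a bound of -3.02, a further probe a bound of -1.56, and the other 2 were not above background, so the size for Tfpi depends on the probe. Endothelial cells carry Thbd, Procr and Tfpi. Of 9 endothelial and stromal markers, 7 were above background in granulocytes and 7 in monocytes, with a summed level of 1.38 in granulocytes and -0.28 in monocytes and Lepr not well above background on either. Col1a1, a stromal gene (difference 3.95), carried most of the granulocyte sum. The median difference of the list was 0.93, and its endothelial genes were split. Cdh5 was above background only in monocytes, with a bound of -1.64, and Kdr gave -0.26. Emcn was above background only in granulocytes, with a bound of 1.43, while Tek gave 0.86 and Pecam1 0.14. Their part in these differences was not tested.

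Both genes of plasminogen activation were higher in granulocytes. Plaur, the urokinase receptor, had an intensity of 47074 in granulocytes and 17274 in monocytes, a difference of 2.32 ± 0.20 or 4.99-fold higher in granulocytes. Its second probe gave 2.40. Plau, urokinase, had an intensity of 180.4 in granulocytes and 94.6 in monocytes, a difference of 1.80 ± 0.21. Plaur and F5 were the called genes closest to 4-fold, and both fell below it without scaling, at 1.45 and 1.57.

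The protease-activated receptors pass signals from thrombin and related proteases into cells. F2r, the thrombin receptor PAR-1, had levels of -3.90 in granulocytes and -2.43 in monocytes, a difference of -1.47 ± 0.25, which came to -0.23 with normexp. F2rl2, PAR-3, which acts with PAR-4 on mouse platelets, was at -3.43 in granulocytes and -4.52 in monocytes, a difference of 1.09 ± 0.26. F2rl1, PAR-2, was not above background on either array. None reached 4-fold, and the 2 measured receptors lay on opposite sides of 0, although their genes lie together on chromosome 13.

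Thbs1, thrombospondin 1, is an adhesive protein that platelets and myeloid cells release and that binds CD36 and CD47. It had an intensity of 7948 in granulocytes and 1520 in monocytes, a difference of 3.26 ± 0.20 or 9.57-fold higher in granulocytes. The other 2 probes gave 2.49 and 2.41, so all 3 were at least 4-fold apart. Thbs1 and F5 are also platelet genes. All 10 platelet and megakaryocyte markers were above background in granulocytes and 9 of 10 in monocytes. Their summed level was 5.12 in granulocytes and 2.89 in monocytes, but 1 gene, Itgb3, carried most of both sums. Its intensity was 8927 in granulocytes and 3573 in monocytes, beside list sums of 11782 in granulocytes and 4603 in monocytes. The median difference of the list was 1.61, and 3 were at least 4-fold higher in granulocytes (Clec1b at 4.32, Gp9 at 2.52 and Itgb3 at 2.19). Pf4 (1.55), Ppbp (1.33), Itga2b (1.78) and Gp1ba (1.66) were higher in granulocytes by less than 4-fold. The part of the platelet and megakaryocyte markers in the Thbs1, F5 and F2rl2 values was not tested.

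**Figure D3:**
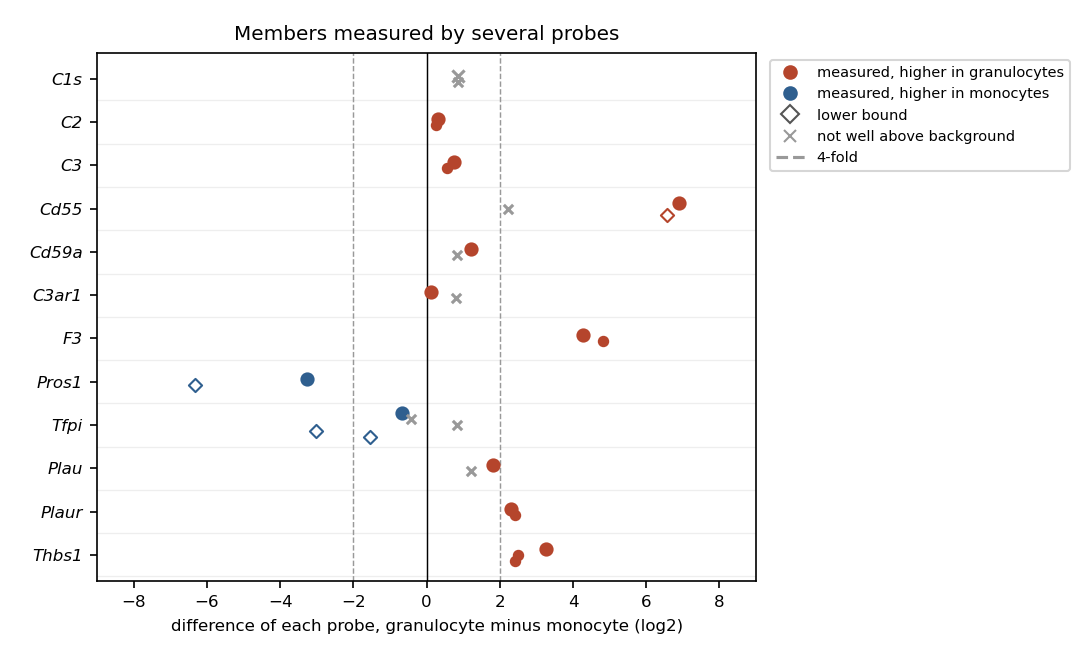
Difference given by every probe of the genes that have more than 1, granulocyte minus monocyte on the log2 scale, with the probe used for the gene drawn larger. The probes of Thbs1, Plaur and F3 gave the same direction, while those of Tfpi and Pros1 spread over several log2 units.

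A further 75 genes of both systems were on the array, and 55 were above background on at least 1. Of these 55, 8 were at least 4-fold higher and 4 at least 4-fold lower in granulocytes, 21.8% together against the 18.9% of all genes, with a median difference of 0.74. Hc, which encodes complement C5, had an intensity of 1083 in granulocytes and 26.6 in monocytes, a difference of 6.22 ± 0.23, which came to 4.52 with normexp. C5ar2, a second receptor of C5a, had 6461 in granulocytes and 655.0 in monocytes, a difference of 4.17. C5 and both its receptors were therefore higher in granulocytes by more than 4-fold with the scaling used, by 1 probe each. F12, the factor that starts the contact pathway, gave 4.42, and 2.49 with normexp. The integrin chains of complement receptors 3 and 4 gave 2.71 for Itgam, 2.93 for Itgax and 2.52 for Itgb2, though another Itgax probe gave 1.30, and Itgam (1.83) and Itgb2 (1.65) fell short of 4-fold without scaling. Clu, clusterin, a fluid-phase inhibitor of membrane attack, was at least 4.15-fold higher in granulocytes, or 2.05-fold with normexp, and Cd55b is given above.

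On the monocyte side, S100a10, which binds plasminogen at the cell surface with annexin A2, had an intensity of 257.9 in granulocytes and 30077 in monocytes, a difference of -5.99. Axl, a receptor of the TAM family that binds Gas6, gave -2.71, but -0.61 with normexp. Lman1, which carries factors V and VIII out of the endoplasmic reticulum, gave -2.45. S100a10 and Lman1 stayed at least 4-fold lower in granulocytes under every scaling, correction, filter and probe rule tried, and Axl did not. The liver is the main source of many complement and coagulation proteins, and of 4 hepatocyte markers 2 were above background in granulocytes and 1 in monocytes, with a summed level of -3.18 in granulocytes and -4.26 in monocytes. Alb and Ttr were not well above background on either array.

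Markers of other blood cells were read in the same way. The summed level of 7 dendritic cell markers was 1.90 in granulocytes and 3.92 in monocytes, with 6 above background in granulocytes and 7 in monocytes, and 2 at least 4-fold lower and 1, Itgax, at least 4-fold higher in granulocytes. Clec10a (-6.15) carried most of the monocyte sum, while Xcr1 (1.20) and Zbtb46 (0.87) were higher in granulocytes. That of 6 NK and T cell markers was 0.08 in granulocytes and 3.45 in monocytes, with 5 above background on each array, 4 at least 4-fold lower in granulocytes and Ncr1 not well above background on either. Erythroid markers were higher in granulocytes, at 8.40 against 6.57 in monocytes, and B lineage markers stood at 5.53 in granulocytes and 5.75 in monocytes. Their part in the results was not tested.

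**Figure D4:**
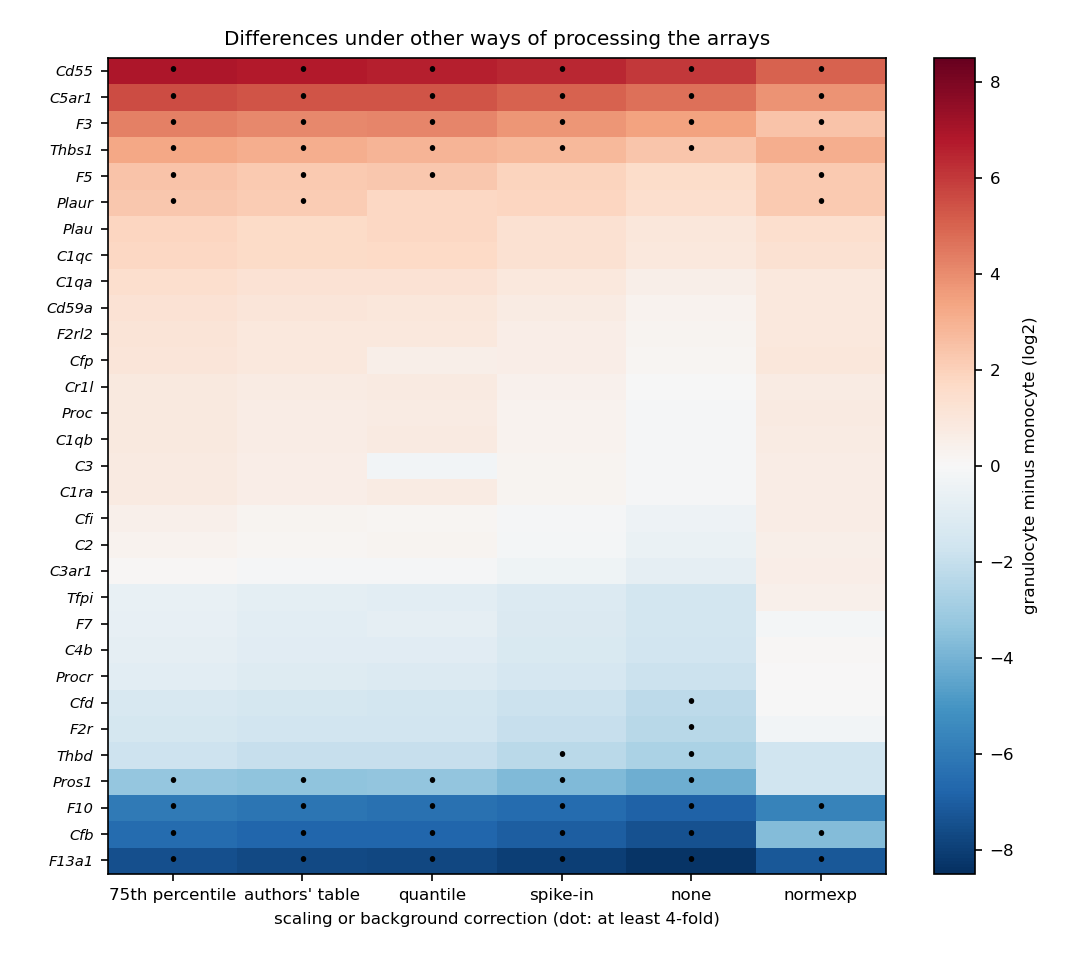
Difference of the 31 genes above background on at least 1 array under several scalings or background corrections, granulocyte minus monocyte on the log2 scale, red above 0 and blue below, with a dot at 4-fold or more. The 10 genes at least 4-fold apart keep their colour throughout, while weakly different genes such as C3 and C3ar1 change it. The authors' table, spike-in scaling and no scaling shift every gene alike, by less than the called differences.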

How the data were processed

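Total RNA of sorted bone marrow granulocytes and monocytes was measured on 1 array per cell type, both on 1 slide. Per the file headers, Agilent Feature Extraction 10.5.1.1 gave each spot a background-subtracted intensity, its error and flags, with probe positions in mm8. Per the labels, 0.5 µg of RNA was amplified. The authors also deposited log2 values, which equalled the log2 intensity plus a constant (-0.24 in granulocytes, -0.92 in monocytes) whose rule is unknown here. Flags for background and saturation, a further kind of value (other), came with the deposited scans.

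From these, log2 intensity minus the array's 75th percentile was computed, leaving out controls and outlier spots (143 in granulocytes, 103 in monocytes), and spots of a probe were averaged. No spot was saturated. Probes were named through RefSeq accessions, then symbols, and 33056 of 41089 were named. A gene took the probe above background on most arrays, then the brightest. A gene above background on 1 array gave a bound against the lowest signal well above background. A call is at least 4-fold. The error of a difference is the scanner's, which assumes a multiplicative error of 0.1. Repeated spots had a median SD of 0.11 in granulocytes and 0.09 in monocytes (245 probes). The number of arrays limits the precision.

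All 34 genes were reported and further genes of both systems named where at least 4-fold apart, except 1 gene that is not reported here. The members and lists were chosen with earlier results of these data known. Probes of C1rb and of another Crry transcript were left out. Alternatives were other scalings, normexp background correction (limma 3.58.1, offset 50), the authors' table, filters, probe rules and 2-fold or 8-fold calls. On simulated data with 200 of 15176 genes changed, 50 of 50 genes raised and 50 of 50 lowered 16-fold were called, and 0 of the genes changed 2-fold or unchanged. Every simulated probe was set above background on both arrays, the changed genes were not dim, and little noise was added. With a 4-fold cut this outcome was largely fixed in advance. It checks the code and gives no error rate for dim genes, bounds or scaling.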

Additional observations from a re-analysis of the deposited data

How the results depend on the processing

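The 10 genes at least 4-fold apart kept their direction in all of the 11 alternatives that gave a value for them (10 for Cfb). Several of these could not turn a direction. Median scaling, spike-in scaling, no scaling and the authors' table shift every gene alike, at most by -0.87 (no scaling). The smallest called difference was 2.32 (Plaur). No spot was saturated, and filters and probe rules return the same value for a gene with 1 probe measured on both arrays. Of the 10 genes, 7 stayed at least 4-fold apart in all alternatives that gave a value. F5 (1.57) and Plaur (1.45) fell below without scaling and Pros1 (-1.70) with normexp. F5 also fell below with spike-in scaling, and Plaur with spike-in scaling and quantile normalisation. Normexp also brought Cfb, Cd55, C5ar1 and F3 closer to 0 by more than 1.5 on the log2 scale. Of the other 21, 10 changed sign and 4 (Cfd, Thbd, Procr and F2r) reached 4-fold under at least 1 alternative. Scaling moved the median of all genes above background on both arrays by -0.87 (none), -0.52 (9 spike-in probes), -0.23 (quantile) and -0.18 (authors' table). The median of the members above background on at least 1 array, 0.75, became -0.12, 0.24, 0.47 and 0.57 under these. Without scaling, 7 members were called lower in granulocytes, all genes split into 581 higher and 3011 lower in granulocytes (16.2% higher, against 45.1% in the reported setting, 24.9% with spike-ins and 35.6% with quantile), and the other pathway genes into 5 higher and 10 lower. With spike-ins, 786 of all genes were called higher, and 10 other pathway genes lower. With normexp, all genes gave 872 higher and 895 lower. At 2-fold, 12 members were higher and 7 lower, all genes 4536 and 3256, and other pathway genes 25 and 10. At 8-fold, all genes gave 522 higher and 666 lower, and other pathway genes 4 and 2. The cause was not tested. No paired analysis was possible because each cell type has 1 array. Signal over background limits Cfb, Cfd and Procr to bounds.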
